A study of Mus musculus with 11 samples.

Results

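The domains described here are the longest stretches of acetylated chromatin that were called in every H3K27ac library of the series. Peaks of the 4 H3K27ac lists that touched or overlapped were merged into union regions, and the domains were chosen by 2 measured properties, a peak of all 4 libraries and a union length of 10000 bp or more. Of 24430 union regions, 12129 had a peak of all 4 libraries, and 565 of these (4.66%) reached that length. They are called broad domains below, and the other 11564 are called the shorter shared regions.

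Chromatin immunoprecipitation followed by sequencing was carried out on sorted CD4+ CD8+ double positive thymocytes, an intermediate stage of T cell development, of mice aged 6 weeks. The Rad21-/- group (KO, 2 H3K27ac libraries) carried a floxed Rad21 allele and a Cre transgene driven by Cd4, and the wild-type group (WT, 2 H3K27ac libraries) came from control littermates whose own Cre and floxed status the labels do not give. Smc1a was mapped in 2 WT libraries and in no KO library. Separate mice are not named for the replicates, so the spread within a genotype may be technical. Deletion depends on Cre made from the Cd4-driven transgene, and how complete it was in these cells was not measured here.

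Acetylation of lysine 27 on histone H3 is placed by p300 and CBP and marks active promoters and enhancers. Where active elements lie close together the mark can run on without a break, and such long stretches are known from genes that define a cell's identity. Cohesin is a ring of Smc1a, Smc3, the kleisin Rad21 and a Stag subunit that extrudes loops of chromatin, halts mainly at CTCF sites, and is also found at active enhancers and promoters. No gene annotation of the build mm9 was used here, so the domains are given by position and were not assigned to genes, and the cell type was not checked against marker genes.

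The lists held 19503 and 20244 peaks in the KO libraries and 21973 and 15686 peaks in the WT libraries. They covered 52.7 and 47.6 Mb in KO, and 56.3 and 45.6 Mb in WT. Depth is unknown, because the lists hold no reads, and a base without a peak is a missing call rather than a measured absence of acetylation. In a pool of sorted cells, fewer acetylated cells and less acetylation per cell cannot be told apart.

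The broad domains ranged from 10007 to 78068 bp, with a median of 13265 bp and a middle range of 11275 to 17302 bp. By comparison the shorter shared regions had a median length of 2841 bp. Most domains lay near the lower limit, with 372 under 15000 bp, 93 from 15000 to under 20 kb and 100 of 20 kb or more, among which 32 reached 30 kb. Together they spanned 8.94 Mb, or 18.7% of the summed length of all shared regions. Lengths ran on without a step across the threshold. The 3 shortest members measured 10007 bp (chromosome 17), 10017 bp (chromosome 9) and 10033 bp (chromosome 18), and the 3 longest shared regions left out measured 9996 bp (chromosome 1), 9987 bp (chromosome 3) and 9980 bp (chromosome 18). A further 12 union regions were long enough but lacked a library, 11 of them a peak of WT replicate 2.

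Every autosome and the X chromosome held broad domains. Chromosome 11 had 71 of them, or 7.28% of its shared regions, and chromosome 2 had 53 (5.72%). The X chromosome had 4, or 1.23% of its shared regions. On the other chromosomes the domains made up between 3.33% (chromosome 13) and 5.38% (chromosome 18) of the shared regions.

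Many broad domains had a close acetylated neighbour. The median distance to the nearest other acetylated region was 867 bp, against 6172 bp for the shorter shared regions, and 298 domains (52.7%) had such a neighbour within 1000 bp, against 21.1% of the shorter regions. Since a domain ends where called peaks stop touching, a short gap was enough to part 2 domains. On chromosome 10, for instance, a domain ended at 20801534 and the next began at 20801567. In all, 119 domains (21.1%) lay within 10000 bp of another broad domain, in 53 groups of at most 4. One group of 4 on chromosome 6 ran from 71247287 to 71351756, with domains of 13037, 30305, 34345 and 12924 bp. Another, on chromosome 5 from 136884335 to 136981669, had domains of 13515, 16386, 41117 and 21759 bp. A group of 4 on chromosome 14 from 32328460 to 32392573 was shorter, with domains of 11542, 14476, 17436 and 12180 bp.

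The authors' peak scores were high in these domains. The best peak of a domain had a median score percentile of 96.9 and 96.5 within the KO lists, and of 96.3 and 97.4 within the WT lists. In the shorter shared regions the medians were 65.7 and 66.1 in KO and 69.3 and 57.5 in WT. Scores at or above 3100, where many are tied, were reached by 375 and 391 domains in the KO lists and by 438 and 295 in the WT lists. Length and score were not always joined, since the best peak lay below the middle of its list in 3 and 5 domains of the KO lists and in 2 and 16 of the WT lists. Length chose the domains and the caller scores whole peaks, so these scores are a description.

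All 4 libraries agreed on most of the acetylated length. Of the 8.94 Mb, 76.8% was called in all 4 libraries. Bases called in both WT libraries and neither KO library made up 354 kb (3.97%), against 39.0 kb (0.436%) for bases called in both KO libraries and neither WT library. The largest class short of complete agreement, 647 kb (7.23%), was missing from KO replicate 2 alone.

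The comparison of genotypes asked whether long acetylated domains were called to the same extent after Rad21 deletion. Genotype was not part of the rule that chose the domains, but covered length was, so these values describe domains whose ends the same peaks had set. Called peaks covered 8.06 and 7.30 Mb of the domains in the KO libraries, against 8.44 and 8.31 Mb in the WT libraries. Both KO libraries lay below both WT libraries, and KO replicate 2 was the lowest. The KO mean was 7.68 ± 0.538 Mb and the WT mean 8.37 ± 0.0960 Mb (SD, n = 2 each), a difference of -0.690 Mb (two-sided exact permutation test over the libraries, p = 0.33, the smallest that 2 against 2 allow). Leaving out KO replicate 1 gave -1.04 Mb and leaving out KO replicate 2 gave -0.308 Mb, while the values were -0.458 and -0.591 Mb with WT replicate 1 or 2 left out.

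The typical broad domain was almost filled by peaks in WT cells and somewhat less in KO cells. The median domain was covered over 93.1% and 84.4% of its length in the KO libraries, and over 96.8% and 96.3% in the WT libraries. At least 90% of the length was covered in 349 and 195 domains in the KO libraries and in 457 and 421 domains in the WT libraries. Under 50% was covered in 6 and 25 domains in KO and in 4 and 5 domains in WT.

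**Figure D1:**
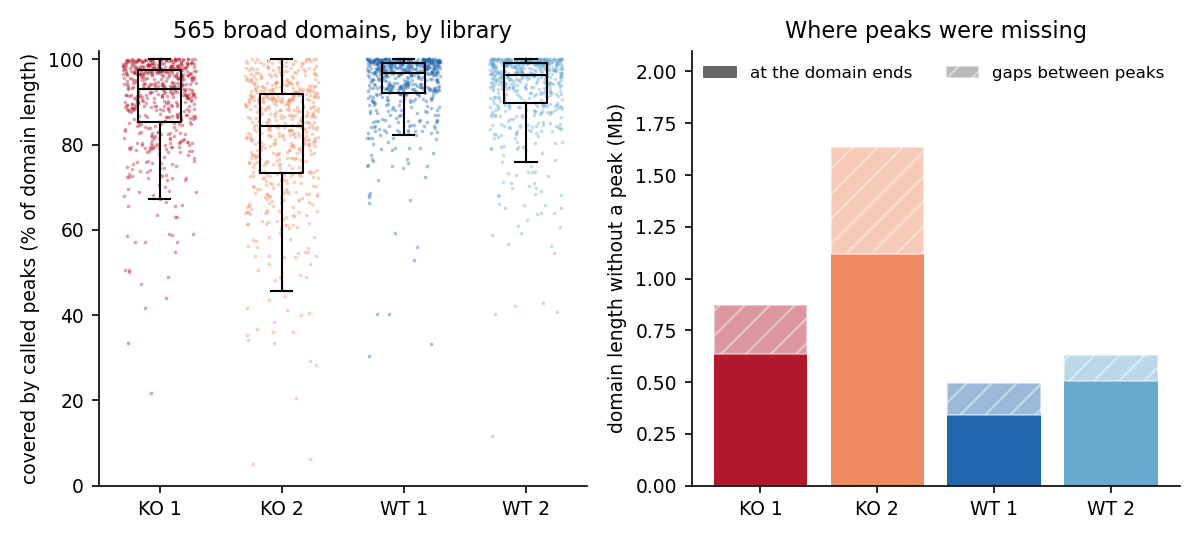
Left, the share of each of the 565 broad domains covered by called peaks (% of domain length), one point per domain, with boxes for the median and middle range and whiskers to 1.5 times that range, for the 2 KO and 2 WT libraries. Right, the domain length without a peak (Mb), split into stretches at the domain ends and gaps between peaks: KO 2 lacked 1.12 Mb at the ends and 0.518 Mb in gaps, more than any other library.

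KO replicate 2 was short of coverage outside the broad domains as well. Coverage in the domains was therefore set against that in the shorter shared regions of the same library. This comparison was not among the results planned at the start. In the shorter regions 87.6% and 79.0% of the length was covered in the KO libraries, against 87.7% and 85.5% in the WT libraries, and KO replicate 1 lay within the range of the WT libraries. In the broad domains 90.2% and 81.7% was covered in KO and 94.4% and 92.9% in WT. The broad domains thus exceeded the shorter regions by 2.67 and 2.73 percentage points in the KO libraries and by 6.71 and 7.39 points in the WT libraries. The gap between the genotypes, -4.35 points, was wider than the spread within either of them (SD 0.0441 and 0.486 points, n = 2 each; two-sided exact permutation test, p = 0.33, the smallest possible).

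The lists that draw a domain also shape this result. Of the 1130 domain ends, 773 (68.4%) were reached by a WT library and 365 (32.3%) by a KO library, with some ends reached by both. When domains were drawn from the KO lists alone, still with a peak of all 4 libraries, 401 domains resulted, covered over 5.68 Mb on average in KO and 5.69 Mb in WT, a difference of -0.0131 Mb with overlapping groups (exact permutation test, p = 1). Drawn from the WT lists alone, 480 domains were covered over 6.52 Mb in KO and 7.25 Mb in WT, a difference of -0.730 Mb. With the KO lists, domains exceeded shorter regions by 3.77 points on average in KO and 6.15 in WT, a difference of -2.38 points. With the WT lists the excess was 1.23 points in KO and 3.43 in WT, a difference of -2.21 points. The same lists drew the shorter regions, and with the KO lists 21.0% of all shared regions were higher in KO and 6.67% lower. Since domain coverage was nearly equal there, that sign does not show lower coverage of the domains in KO. These 2 ways of drawing domains were chosen after the data had been examined.

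As a share of each library's total covered length, the broad domains held 15.3% and 15.3% in the KO libraries, and 14.999% and 18.2% in the WT libraries. Here the groups overlapped, since the KO values lay between the WT values. The difference was -1.27 percentage points (two-sided exact permutation test, p = 1), and without WT replicate 2, the library with the fewest peaks, it was 0.497 points.

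Counted domain by domain, both KO libraries had less covered length than both WT libraries in 274 of the 565 domains (48.5%), against a background of 22.9% over all 12129 shared regions. Both KO libraries had more in 43 domains (7.61%, background 17.4%). With domains drawn from the KO lists alone, 49 of 401 were lower (12.2%, background 6.67%) and 44 higher (10.97%, background 21.0%), and from the WT lists alone 278 of 480 were lower (57.9%, background 27.4%) and 9 higher (1.88%, background 5.65%). Leaving out a library asks less of each region, since 1 library then stands for a genotype. Domains with less in KO then numbered 406 of 517 without KO replicate 1 (78.5%, background 50.9%) and 280 of 536 without KO replicate 2 (52.2%, background 30%). They were 291 of 490 without WT replicate 1 (59.4%, background 35.7%) and 316 of 507 without WT replicate 2 (62.3%, background 37.5%). Domains with more in KO numbered 36 of 517 without KO replicate 1 (6.96%, background 24.7%), 109 of 536 without KO replicate 2 (20.3%, background 38.3%), 66 of 490 without WT replicate 1 (13.5%, background 31.4%) and 77 of 507 without WT replicate 2 (15.2%, background 31.9%). After dividing by each library's total covered length, 136 domains (24.1%, background 15.8%) were lower and 24 (4.25%, background 11.7%) higher in both KO libraries.

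The balance shifted with length. Among shared regions under 2000 bp, both KO libraries were lower in 17.1% and higher in 20.5%. From 5000 to under 10000 bp the shares were 35.3% and 9.88%, so the lean towards lower coverage in KO began below the 10000 bp threshold. Among domains of 20 kb or more both KO libraries were lower in 63 of 100 and higher in 1. That exception, found after its values were seen, spanned 7762309 to 7787111 of chromosome 9 and had peaks over 24336 and 24032 bp in KO and 23095 and 21756 bp in WT. With scaling to the library total, the share of domains lower in both KO libraries did not climb further with length, being 25.3% from 10000 to under 15000 bp, 22.6% from 15000 to under 20 kb and 21.0% from 20 kb.

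**Figure D2:**
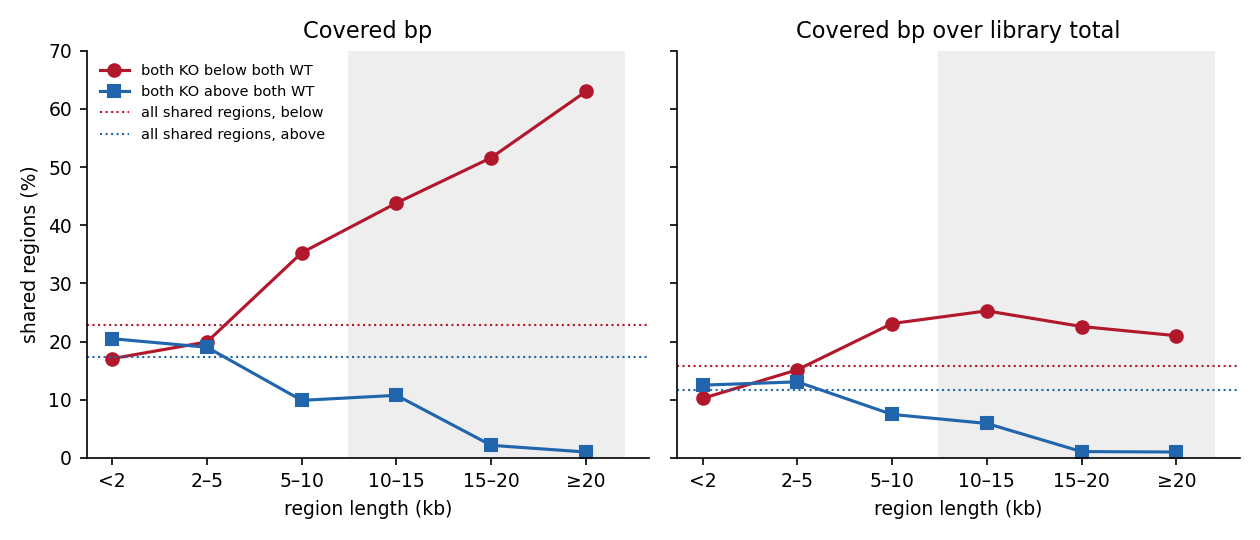
Shared regions in which both KO libraries had less (circles) or more (squares) covered length than both WT libraries, in % of regions of each length class (kb), for covered bp (left) and covered bp over the library total (right). Dotted lines give the values over all shared regions and grey marks the broad domains; on the left the lower class reaches 63.0% at 20 kb and over, and on the right it stays between 21.0% and 25.3% within the grey part.

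No single domain passed a test that takes the spread between libraries into account. In a limma fit of log2 covered bp over all 12129 shared regions, 0 broad domains had a Benjamini-Hochberg adjusted p under 0.05, and the smallest was 0.283. At an unadjusted p under 0.05, 87 domains (15.4%) were lower in KO (background 5.55% of all shared regions) and 8 (1.42%) were higher (background 2.84%). This lean depended on the lists that drew the domains. From the KO lists alone, 3 of 401 domains were lower (0.748%, background 0.207%) and 11 higher (2.74%, background 3.80%). From the WT lists alone, 89 of 480 were lower (18.5%, background 6.43%) and 0 higher (background 0.0887%). The median log2 difference, KO minus WT, was -0.10 for the broad domains and -0.02 for all shared regions. After dividing by library totals, the same fit called 16 domains (2.83%) lower (background 1.76%) and 4 (0.708%) higher (background 0.66%). That scaling gave called domains nearly equal standard errors (0.214 to 0.246 on the log2 scale). The prior degrees of freedom of the scaled fit were infinite, against 2.22 before scaling. A domain's own spread between libraries therefore did not enter its p-value, and small adjusted p after scaling do not measure that spread. Among the 4 higher calls was the domain of chromosome 11 from 11598816, in which the libraries of the 2 genotypes overlapped.

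The number of peaks per domain overlapped between the genotypes. The KO libraries had 1.72 and 2.06 peaks per domain and the WT libraries 1.75 and 1.52. The KO mean was 1.89 ± 0.247 and the WT mean 1.64 ± 0.166 (SD, n = 2 each; two-sided exact permutation test, p = 0.667), and KO replicate 1 had fewer peaks per domain than WT replicate 1. The difference of 0.253 peaks was 0.452 without KO replicate 1, 0.434 without WT replicate 1, 0.222 without WT replicate 2 and 0.0989 without KO replicate 2. A single peak filled or represented the domain in 286 and 206 domains in the KO libraries and in 256 and 343 domains in the WT libraries. The shorter shared regions had 1.05 to 1.09 peaks per region in every library.

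The length without a peak did not overlap between the genotypes. Uncovered stretches at the domain ends summed to 0.637 and 1.12 Mb in the KO libraries and to 0.341 and 0.503 Mb in the WT libraries. Gaps between peaks inside the domains summed to 0.236 and 0.518 Mb in KO, against 0.155 and 0.129 Mb in WT. Both KO libraries exceeded both WT libraries in each measure (two-sided exact permutation tests, p = 0.33 each, the smallest possible). The same peaks set the ends, 68.4% of them reached by a WT library and 32.3% by a KO library, so the test at the ends is not independent of the rule. In domains drawn from the KO lists alone, the outer 2000 bp were covered to 95.7% and 78.4% in KO and 89.7% and 88.8% in WT, with overlapping groups. The mean gap measured 584 and 862 bp in KO and 364 and 441 bp in WT, while the number of gaps overlapped, with 404 and 601 in KO and 426 and 293 in WT. The longest peak of the median domain was 10717 and 9035 bp in KO and 10973 and 11080 bp in WT.

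The longest broad domain lay on chromosome 1 from 167715612 to 167793679 (78068 bp). It was covered over 74628 and 64597 bp in the KO libraries, by 6 and 8 peaks, and over 76473 and 71786 bp in the WT libraries, by 2 and 4 peaks. KO replicate 1 lay between the WT libraries, so the groups overlapped. The next, spanning 32499780 to 32571085 of chromosome 9 (71306 bp), had 68922 and 64255 bp under peaks in KO and 71157 and 69869 bp in WT, and both KO libraries were lower. WT replicate 1 reported it as 1 peak, KO replicate 2 as 6.

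On chromosome 5 from 66235767 to 66297294 (61528 bp), coverage was 56361 and 50047 bp in KO and 57460 and 61062 bp in WT. The domain of chromosome 8 from 114080743 to 114137936 (57194 bp) had 55895 and 47214 bp in KO and 57123 and 56665 bp in WT. Both were lower in both KO libraries, with mean differences of -6057 and -5339.5 bp. A domain of chromosome 2 from 152604024 to 152648984 (44961 bp) had peaks over 43590 and 38317 bp in KO and 44761 and 44714 bp in WT. One of chromosome 11 from 52061516 to 52101235 (39720 bp) had peaks over 36538 and 35810 bp in KO and 38429 to 39689 bp in WT. In these 4 domains the coverage was lower in each KO library than in each WT library, but every library called most of the length.

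Chromosome 12 held 2 of the 10 longest domains. From 108355366 to 108401760 (46395 bp) the libraries were close, with 44524 and 45215 bp in KO and 45099 and 46293 bp in WT. From 109195032 to 109245568 (50537 bp) coverage was 48996 and 44547 bp in KO, against 47606 and 21257 bp in WT. WT replicate 2 stood apart there, and it did so again on chromosome 11 from 11598816 to 11643507 (44692 bp), with 42640 and 34891 bp in KO and 44363 and 5238 bp in WT. In both domains WT replicate 1 lay above the KO mean, so the higher KO mean rests on WT replicate 2.

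**Figure D3:**
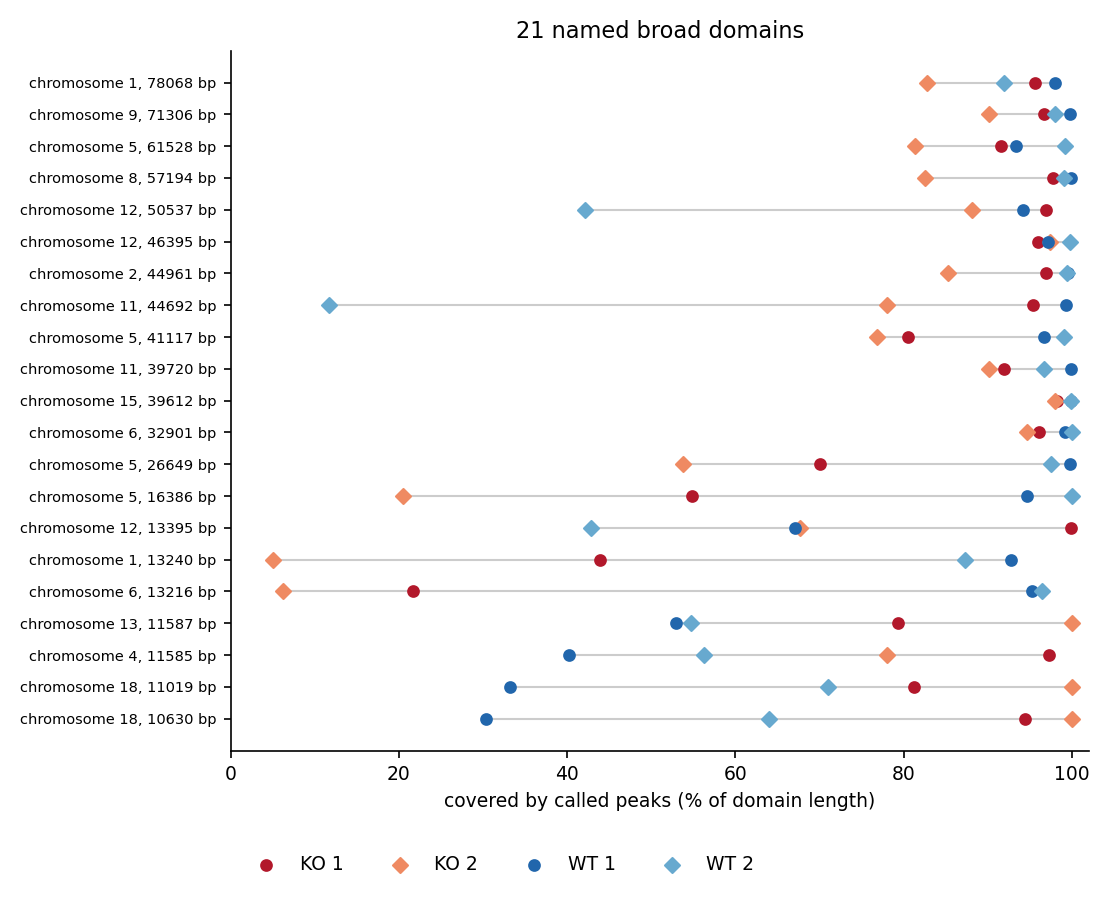
The share of domain length covered by called peaks (%) in the 21 broad domains named for length, for the greatest difference between genotypes or for Smc1a sites, ordered by length, with KO libraries in red and orange, WT libraries in blue and replicate 2 as diamonds. The longest domains cluster above 75% except for WT 2 on chromosomes 12 and 11, and the widest separations between genotypes lie among domains under 30 kb. The domain of 41117 bp is also separated, with 80.5% and 76.9% in KO and 96.7% and 99.1% in WT.

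Among domains whose groups did not overlap, the 5 with the greatest shortfalls in KO measured 13216 to 41117 bp. On chromosome 6 from 8354925 to 8368140 (13216 bp), peaks covered 2862 and 828 bp in KO and 12597 and 12750 bp in WT. The best scores there were 204.47 and 56.60 in the KO lists and 507.74 and 1000.77 in the WT lists. The log2 difference was -3.04 (SE 0.623, limma adjusted p = 0.350; 1.87e-30 after dividing by library totals). On chromosome 5 from 44591198 to 44617846 (26649 bp), 18669 and 14331 bp were covered in KO and 26585 and 25999 bp in WT. On chromosome 1 from 43534093 to 43547332 (13240 bp), 5814 and 665 bp were covered in KO and 12285 and 11553 bp in WT. Its best scores were also far below 3100, at 119.11 and 58.0 in the KO lists and 525.84 and 190.97 in the WT lists. The domain of 26649 bp reached 3100 in every list. The groups did not overlap in any of the 3, and none passed the limma fit of covered bp. After dividing by library totals, limma called that of chromosome 6 and that of chromosome 1 (adjusted p = 3.52e-22). As described above, that fit left out each domain's own spread between libraries.

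Another 2 of the 5 greatest shortfalls were neighbours in the group of 4 domains on chromosome 5. From 136898223 to 136914608 (16386 bp) coverage was 8995 and 3362 bp in KO and 15522 and 16386 bp in WT, with no Smc1a site. The best scores were low, at 134.74 and 98.76 in the KO lists and 522.52 and 131.37 in the WT lists. WT replicate 2 thus scored below KO replicate 1. This domain was called by limma after dividing by library totals (adjusted p = 3.61e-08) but not before (0.538). From 136915525 to 136956641 (41117 bp), the ninth longest domain, coverage was 33091 and 31604 bp in KO and 39754 and 40758 bp in WT. It held 4 Smc1a sites. Its log2 difference was -0.32 (SE 0.0404, limma adjusted p = 0.283). The whole group was covered over 65664 and 50433 bp in KO and 87110 and 91279 bp in WT, and all 4 of its domains were lower in both KO libraries. In the group on chromosome 6 the coverage was 87066 and 80960 bp in KO and 87911 and 90440 bp in WT, also lower in each domain but by less. In that of chromosome 14 it was 46044 and 39779 bp in KO and 53082 and 54080 bp in WT. A group of 3 on chromosome 3 from 60280465 to 60324866 had more in KO in sum, with 34866 and 35861 bp in KO and 32070 and 33258 bp in WT, although 1 of its domains was lower in both KO libraries.

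The domains with the greatest excess in KO were all under 15000 bp. Among them was a pair of neighbours on chromosome 18. From 73789487 to 73800505 (11019 bp) coverage was 8947 and 11019 bp in KO and 3662 and 7819 bp in WT. From 73800987 to 73811616 (10630 bp) it was 10042 and 10630 bp in KO and 3223 and 6799 bp in WT. Each KO library reported both domains as single peaks. On chromosome 4 from 63146598 to 63158182 (11585 bp) coverage was 11272 and 9033 bp in KO and 4665 and 6523 bp in WT. On chromosome 13 from 114361740 to 114373326 (11587 bp) it was 9198 and 11587 bp in KO and 6129 and 6335 bp in WT. On chromosome 12 from 88141194 to 88154588 (13395 bp) it was 13390 and 9059 bp in KO and 8984 and 5743 bp in WT. The groups did not overlap in any of the 5, and none passed the limma fit of covered bp (adjusted p 0.335 to 0.699). After dividing by library totals, limma called 3 of them, with adjusted p of 0.000220 for the domain of 10630 bp, 0.00965 for that of 11019 bp and 0.0116 for that of 11585 bp. In the domain of 11019 bp the groups overlapped once covered length was divided by the library total. Chromosome 18 was the one chromosome with more domains higher (6) than lower (4) in both KO libraries, out of 20. On chromosomes 10 and 6 no domain was higher in both KO libraries, against 17 of 32 and 21 of 35 that were lower. Over all chromosomes 48.5% of the domains were lower and 7.61% higher, against 22.9% and 17.4% of all shared regions. These chromosomes were picked out by the counts themselves. The shares over all shared regions of each chromosome were not counted, and differences between chromosomes were not tested.

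Smc1a was not used to choose the domains, and its sites were frequent in them. A site called in both Smc1a libraries overlapped 396 of the 565 broad domains (70.1%, Wilson 95% interval 66.2 to 73.7), against 20.3% of all shared regions. Longer regions offer more room, and the share climbed from 9.08% of shared regions under 2000 bp to 40.4% from 5000 to under 10000 bp, 61.0% from 10000 to under 15000 bp and 94.0% from 20 kb. Counted per length the sites were also denser in long regions, apart from a small dip in the second class, at 55.4 per Mb under 2000 bp, 52.2 per Mb from 2000 to under 5000 bp, 73.1 per Mb from 5000 to under 10000 bp, 78.4 per Mb from 10000 to under 15000 bp and 117 per Mb from 20 kb. The Smc1a libraries differed in this, with 120 and 72.0 peaks per Mb in regions under 2000 bp and 170 and 172 per Mb in domains of 20 kb or more. Replicate 1 had 121 per Mb from 5000 to under 10000 bp, 124 from 10000 to under 15000 bp and 132 from 15000 to under 20 kb. Its rise thus lay mainly in the longest class. Replicate 2 had 95.3, 112 and 119 per Mb in the same classes. From 2000 to under 5000 bp each library had fewer than in the shortest class, with 100 and 70.9 per Mb. No test was run over regions, and the intervals cover counting error only.

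The domain richest in Smc1a was that of chromosome 5 from 66235767, with 18 sites of both replicates. The chromosome 9 domain of 71306 bp held 11, and one of chromosome 6 from 41480280 to 41513180 (32901 bp) held 10. The last was covered over 31603 and 31129 bp in KO and 32618 and 32901 bp in WT. Next came 8 sites each in the 46395 bp domain of chromosome 12 and in a domain of chromosome 15 from 74730626 to 74770237 (39612 bp), covered over 38928 and 38809 bp in KO and 39551 and 39586 bp in WT. Mean covered length differed between KO and WT by -6057 bp in the first of these 5 domains, by -3924.5 bp in the second and by -1393.5 bp in the third. In the last 2 the differences were -826.5 bp on chromosome 12, where the groups overlapped, and -700.0 bp on chromosome 15. Length did not assure a site either, and 6 domains of 20 kb or more had none.

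**Figure D4:**
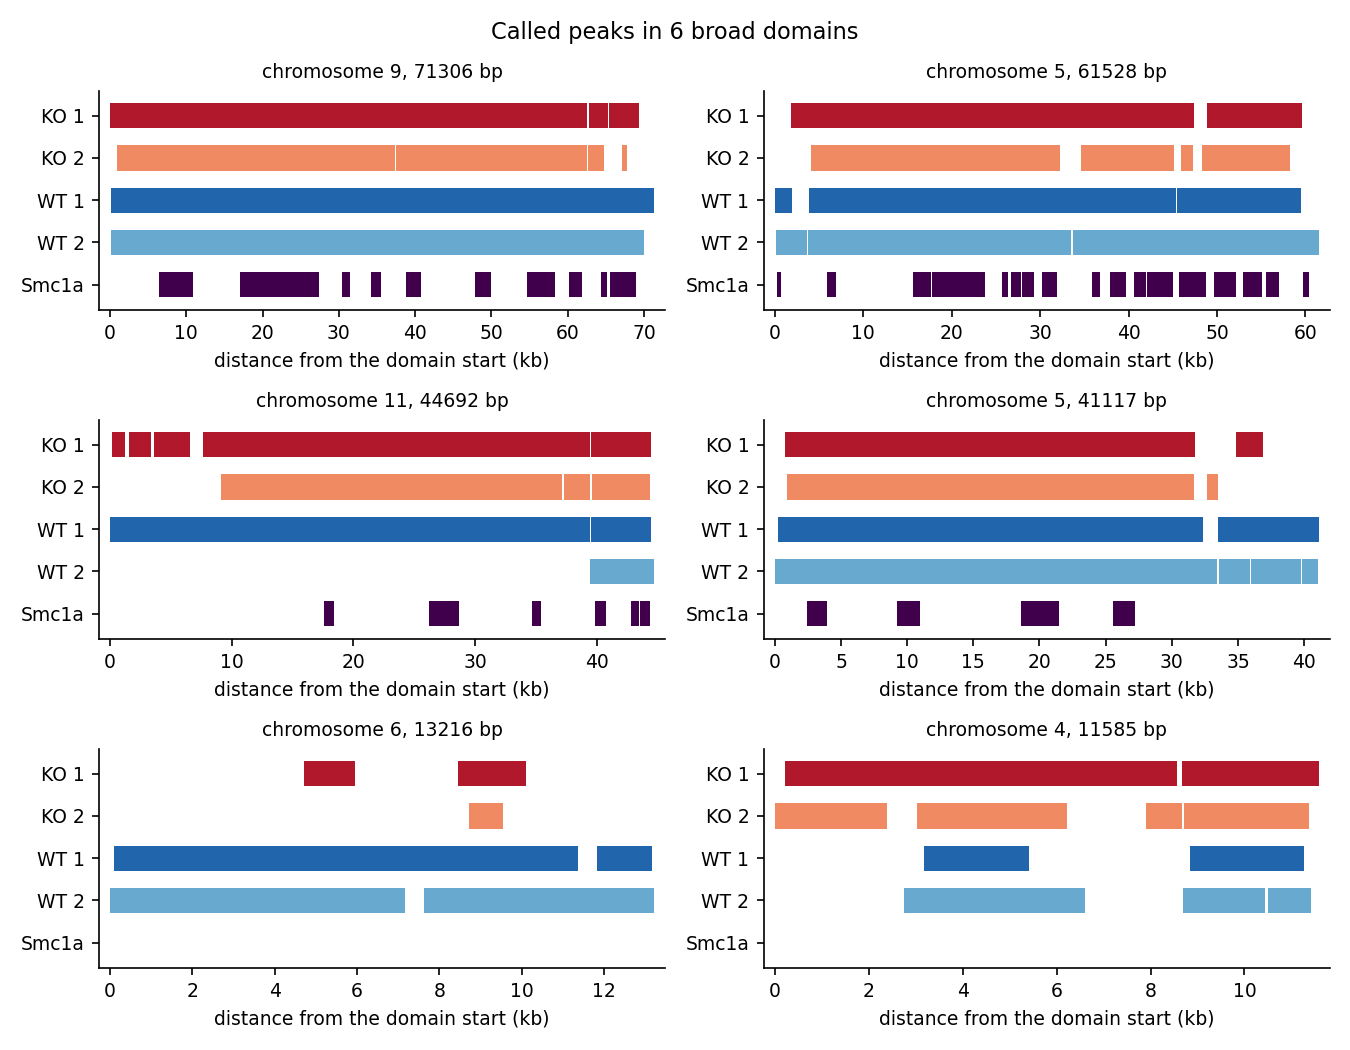
Called peaks of the 2 KO and 2 WT libraries and Smc1a sites of both replicates (bars) along 6 broad domains, with distance from the domain start in kb. From the upper left they are the domains of 71306 and 61528 bp with 11 and 18 Smc1a sites, the domain of chromosome 11 where WT 2 called 5238 bp, the domain of 41117 bp on chromosome 5, and the domains of 13216 bp (less in KO) and 11585 bp (more in KO).

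Smc1a sites were sparse in the first 1000 bp inside an end and denser beyond it. Midpoints of sites of both replicates had a density of 99.1 per Mb in the inner part, 73.9 per Mb within 2000 bp inside an end, and 40.4 per Mb in the 10000 bp outside. Inside over outside, the ratio was 2.30 for the sites of both replicates, 2.19 for Smc1a replicate 1 alone and 2.497 for replicate 2 alone. Shared regions of 5000 to under 10000 bp had higher ratios, of 2.65, 2.62 and 2.72, and an inner density of 99.1 per Mb, so neither is particular to the broad domains. The profile at the ends was steep. In the first 1000 bp outside an end there were 17.7 midpoints per Mb and in the first 1000 bp inside 46.9 per Mb. The highest density, 101 per Mb, lay 1000 to 2000 bp inside, against 88.5 to 94.7 per Mb from there to 5000 bp. Outside, the density was 62.8 per Mb between 6 and 7 kb from the end and 38.9 per Mb between 19 and 20 kb. Both Smc1a libraries had their lowest value in the first 1000 bp outside, at 31.0 and 24.8 per Mb. Peaks of neighbouring acetylated regions are sparse just outside an end by construction, with 8.45% to 16.9% of the first 1000 bp covered, and the part of that in the Smc1a profile was not tested.

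**Figure D5:**
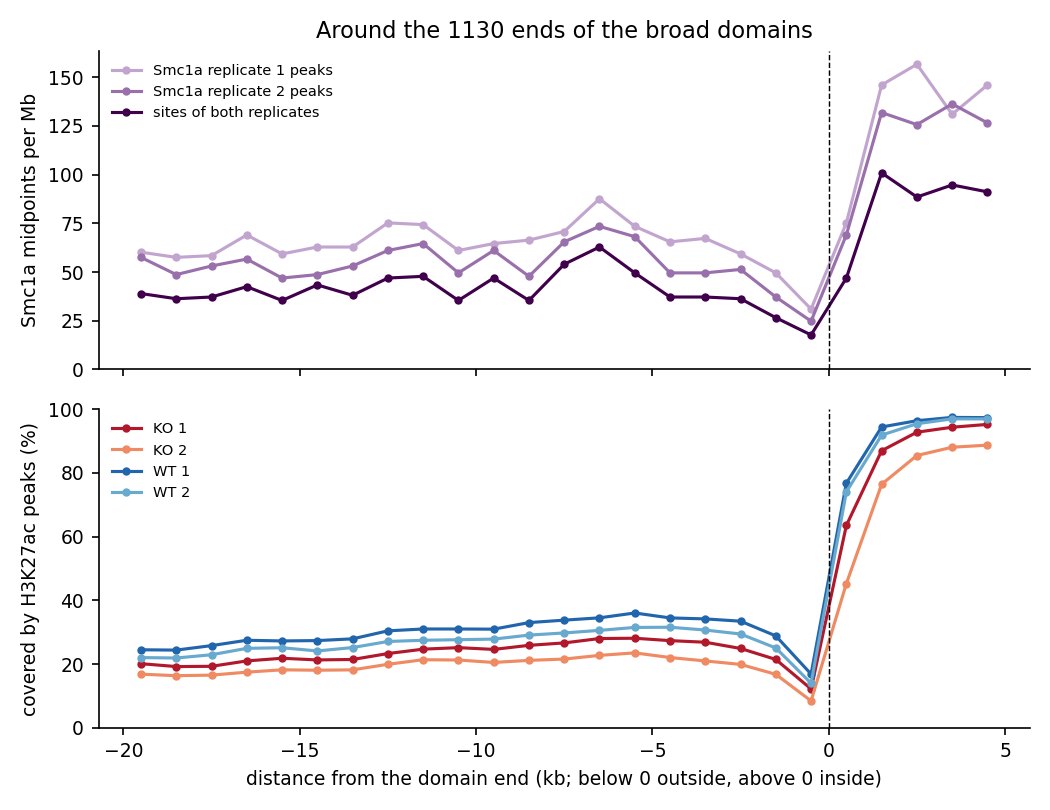
Density of Smc1a midpoints per Mb (top) and share of bases covered by H3K27ac peaks in % (bottom) in bins of 1 kb around the 1130 ends of the broad domains, with distances below 0 outside and above 0 inside. Smc1a dips to 17.7 per Mb just outside and reaches 101 per Mb within 2 kb inside, and KO 2, then KO 1, lie below both WT libraries in coverage inside the ends.

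A Smc1a site at the outer edge of a domain was less usual than one inside. A midpoint lay within 2000 bp outside an end at 47 domains (8.32%) and within 10000 bp at 307 domains (54.3%), of which 71 had one beyond both ends. Shared regions of 5000 to under 10000 bp had values of 7.35% and 39.9%. By midpoints, 231 domains had a site inside and another within 10000 bp outside, 164 had one inside only, 76 had one outside only and 94 had neither.

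Smc1a peaks in broad domains were wide. Their median widths were 1060 and 1056 bp in the Smc1a libraries, against 892.5 and 838 bp in the shorter shared regions and 632 and 620 bp outside all acetylated regions. The domains held 1242 peaks of replicate 1 (4.87% of the list) and 1179 of replicate 2 (6.65%). Their score percentiles, with medians of 47.7 and 52.3, were close to the middle of each list.

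Acetylation at the Smc1a sites was called in nearly all cases. Of 829 site midpoints in the domains, 96.4% and 94.0% lay under a peak in the KO libraries and 98.4% and 98.9% in the WT libraries (means 95.2 ± 1.71% and 98.7 ± 0.341%, SD, n = 2 each; two-sided exact permutation test, p = 0.33, the smallest possible). To leave the domain ends aside, the outer 2000 bp were removed. Then bases within 1000 bp of a site midpoint were covered to 98.7% and 96.9% in KO and 99.2% and 99.0% in WT, a difference of -1.32 percentage points. Other inner bases were covered to 94.5% and 86.8% in KO and 97.0% and 95.6% in WT, a difference of -5.69 points. The outer 2000 bp were covered to 75.2% and 60.8% in KO and 85.6% and 83.0% in WT, a difference of -16.2 points. Both KO libraries lay below both WT libraries in each of these parts, but the ends are where the outermost peaks stopped, mostly those of a WT library. In domains drawn from the KO lists alone, the outer 2000 bp were covered to 95.7% and 78.4% in KO and 89.7% and 88.8% in WT, and the inner bases to 99.6% and 97.0% in KO and 98.3% and 97.2% in WT. The groups overlapped there in both parts, with differences of -2.26 and 0.532 points. Values near 100% leave little room for a difference, and the part of that ceiling was not tested.

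Domains with and without a Smc1a site were set side by side, and the difference between them was not tested. Both KO libraries were lower in 214 of 396 domains with a site (54.0%) and in 60 of 169 without (35.5%), against 22.9% of all shared regions. They were higher in 24 domains with a site (6.06%) and in 19 without (11.2%), against 17.4% of all shared regions. The shorter shared regions were not split by Smc1a in this way. The domains with sites were longer, with medians of 13895.5 and 11956 bp. Among domains under 15000 bp, whose medians were 11972 and 11585 bp, both KO libraries were lower in 51.5% of 227 with a site and in 31.7% of 145 without. In covered length, domains with sites had 90.4% and 82.4% in KO and 94.7% and 93.9% in WT, a difference of -7.90 points. Domains without sites had 89.8% and 79.5% in KO and 93.7% and 89.9% in WT, a difference of -7.15 points. In both kinds each KO library lay below each WT library, although KO replicate 1 and WT replicate 2 nearly met in the domains without sites.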

How the data were processed

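Alignment was to mm9 with Bowtie 0.12.8, per the submitters' processing notes. The deposited lists give, for each library on its own, a start, an end and a score per peak, and the names are those of MACS, per the file contents. The score is the authors' value. Its scale, the caller's version and settings, the input and any read filter were not found in the labels or lists. Positions are mm9, counted from 1. The 5 input libraries were not used here.

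Python 3.11.15 was used with scipy 1.17.1, pandas 2.3.3, numpy 2.4.6 and, for figures, matplotlib 3.10.9. The package limma 3.58.1 (R 4.3.3) was fitted with a variance trend on log2 covered bp of all 12129 shared regions. Interval functions and the fit were tested on simulated data. A Smc1a site is a merged region with a peak of both replicates, overlapping by at least 1 bp. No 2 libraries of one target held an identical peak.

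The domains and tests were chosen with earlier results of these data known. Named are the 10 longest domains, the 5 with the greatest deficit and the 5 with the greatest excess in KO among those whose groups do not overlap, the 5 with the most Smc1a sites, and the 3 on either side of the threshold. Same-numbered KO and WT libraries had deviations that correlated at r = 0.0624 across all shared regions and 0.148 across the domains. With 2 pairs, and no label that ties them, the numbers were not taken as pairs. Alternatives were a stricter score, equal peak numbers, other lengths, merging and overlap, each library left out, scaling, the replicate block, other Smc1a sites and other flanks. Sequences of the domains are not shown, since no mm9 sequence was used here.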

Additional observations from a re-analysis of the deposited data

How the results depend on the processing

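Across 9 results and 127 alternatives, 21 were counts, shares or ratios that moved past the limit set for them and 2 changed sign. The other 104 did neither, but could differ in size: covered length differed by -0.0131 Mb with domains drawn from the KO lists, and peaks per domain by 0.0391 after merging within 1000 bp. The difference in the share of library covered length (main -1.27 points) was 0.497 without WT replicate 2 and 0.0480 with domains drawn from the KO lists, and ran from -2.37 to 0.497 over the left-out libraries; the cause was not tested. Over the left-out libraries covered length differed by -1.04 to -0.308 Mb, peaks per domain by 0.0989 to 0.452, and the excess over shorter regions by -4.49 to -3.49 points. Of domains compared with 1 library for a genotype and 2 for the other, 280 to 406 were lower in KO and 36 to 109 higher; limma calls were 0 throughout. Smc1a was present in 69.6% to 71.4%, with a density ratio of 2.23 to 2.36. Domains lower and higher in both KO libraries numbered 418 and 68 of 906 at 8000 bp (46.1% and 7.51%). At 15000 bp they numbered 111 and 3 of 193 (57.5% and 1.55%). The background at both lengths was 22.9% and 17.4% of all shared regions. After scaling to library totals they were 136 and 24 of 565 (24.1% and 4.25%, backgrounds 15.8% and 11.7%). The fit called 20 there, 16 lower and 4 higher (backgrounds 1.76% and 0.66%). With domains drawn from the KO lists 49 of 401 were lower (12.2%, background 6.67%). With those from the WT lists 9 of 480 were higher (1.88%, background 5.65%). Merging within 1000 bp gave 1 call. The share of domains with Smc1a was 63.5% with the upper 75% of scores, 65.0% with equal numbers of peaks, 62.8% at 8000 bp, 87.6% at 15000 bp, and 86.5% and 75.4% with Smc1a replicates 1 and 2 alone. The density ratio was 2.69 after merging within 1000 bp and 2.99 with flanks of 5000 bp. With the replicate block, 337 of 565 domains (59.6%) were lower in KO than in WT in both same-numbered pairs and 56 (9.91%) higher. This asks less of a region than groups that do not overlap, and the same count over all shared regions was not made. The mean differences are the same by construction (covered length -0.690 Mb, permutation p = 0.5). Depth is unknown, so a missing call cannot be told from weak signal.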
